A study of Mus musculus with 16 samples.

Results

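The genes examined were 10 that encode proteins of the lipid droplet surface and of the release of fatty acids from it, out of 46078 genes counted in mouse liver. They were listed by name: the droplet coat genes Plin2, Plin4 and Plin5, the CIDE genes Cidea, Cideb and Cidec, the lipase gene Pnpla2, its coactivator gene Abhd5 and the lipase inhibitor genes G0s2 and Hilpda. All 10 passed the filter on low counts and were among the 15075 genes tested. The RNA came from whole livers of male mice of a single strain, C57BL6/J in the study's methods and written C56B6/J in the labels, that entered the diets at 8 weeks of age and for which the labels give no transgene. Mice ate for 16 weeks either control chow (CD) or food with 60% of its calories from fat (high-fat diet, HFD), with livers taken from mice fed ad libitum or after a 16 h fast, and they are called CD fed, CD fast, HFD fed and HFD fast. Each group held 4 libraries. The labels number the livers in each group and tie them to no cage, litter or day. The p-values rest on the spread between livers within groups, which the model shares over the 4 groups.

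Triglyceride in hepatocytes is stored in droplets whose surface is a single layer of phospholipid covered by proteins. Perilipins coat this surface and control the access of lipases, CIDE proteins gather at contacts between droplets and move lipid from small droplets to larger ones, and adipose triglyceride lipase, the product of Pnpla2, removes the first fatty acid from triglyceride. ABHD5 activates this lipase, whereas G0S2 and HILPDA inhibit it. In fasting, fatty acids released from adipose tissue reach the liver and are stored or oxidized there, and a diet rich in fat enlarges the droplets.

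Upstream sequences are shown for Plin2, Plin4 and Cidec, which rose with fasting in both diets, and for Plin5 and Pnpla2, whose response to fasting differed between the diets. They come from RefSeq promoter windows on GRCm38.p6 and hold the bases before the outermost annotated start, either that of RefSeq or the gene boundary of GENCODE, written 5′ to 3′ in the direction of the gene and in lower case. Capitals mark matches, on either strand, to AGGTCA (the half-site of nuclear receptors such as PPARα), CACGTG (an E-box), TGTTTAC (a forkhead site) or GGGCGG (a GC box). The lines of Plin2, Plin4 and Plin5 therefore end 1, 21 and 48 bases before the RefSeq start of the window, and matches beyond the end of a line are not in it.
Plin2, chr4:86670061-86670309, minus strand: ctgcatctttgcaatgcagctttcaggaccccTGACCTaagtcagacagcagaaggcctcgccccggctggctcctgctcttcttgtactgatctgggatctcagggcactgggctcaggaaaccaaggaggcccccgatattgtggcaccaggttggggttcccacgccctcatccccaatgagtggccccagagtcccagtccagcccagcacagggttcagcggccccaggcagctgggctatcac
Plin4, chr17:56109804-56110032, minus strand: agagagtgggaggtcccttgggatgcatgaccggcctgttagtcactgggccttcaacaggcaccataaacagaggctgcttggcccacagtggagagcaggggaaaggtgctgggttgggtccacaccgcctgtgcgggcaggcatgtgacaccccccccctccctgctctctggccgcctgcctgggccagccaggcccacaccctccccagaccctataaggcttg
Plin5, chr17:56117597-56117798, minus strand: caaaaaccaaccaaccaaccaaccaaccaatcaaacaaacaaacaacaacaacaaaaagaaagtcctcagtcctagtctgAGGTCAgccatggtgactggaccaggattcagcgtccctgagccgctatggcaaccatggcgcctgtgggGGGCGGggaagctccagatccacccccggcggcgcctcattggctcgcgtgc
Cidec, chr6:113435761-113436010, minus strand: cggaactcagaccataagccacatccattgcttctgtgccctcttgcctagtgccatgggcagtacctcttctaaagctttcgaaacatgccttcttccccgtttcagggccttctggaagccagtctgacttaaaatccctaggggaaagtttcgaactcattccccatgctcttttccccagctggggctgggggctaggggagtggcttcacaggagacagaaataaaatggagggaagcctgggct
Pnpla2, chr7:141454938-141455187, plus strand: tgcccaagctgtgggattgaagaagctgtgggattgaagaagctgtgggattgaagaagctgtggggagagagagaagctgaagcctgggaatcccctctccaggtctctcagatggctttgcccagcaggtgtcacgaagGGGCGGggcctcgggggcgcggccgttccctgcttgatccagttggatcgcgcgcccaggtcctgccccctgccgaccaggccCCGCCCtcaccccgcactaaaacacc

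RefSeq windows of 300 bases, from 250 before to 50 after the start, were searched for 9 of the 10 genes, in 12 windows. Cidea was not searched. Windows on its chromosome were left out for these genes, but not from the set of all mouse windows. The half-site AGGTCA was present in windows of Plin2, Plin5 and Abhd5, in 4 of 12 windows, against 16.3% of all 32851 mouse windows. Distances are counted from the RefSeq start, not from the end of the printed line. In Plin2 the half-site began 218 bases before it, and in Plin5, in the window shown, 170 bases before it. A window of Plin2 also held CACGTG, a motif of 7.15% of all windows, which began 4 bases before the start and ran across it. GC boxes were found in 9 of 12 windows, against 35.7% of all. The genes were Abhd5, Cideb, G0s2, Hilpda, Plin2, Plin5 and Pnpla2. Plin5 and Hilpda each gave more than 1 of these windows, which overlap, so that the windows are not independent. None of the 12 windows searched held TGTTTAC, present in 3.65% of all windows. A direct repeat of 2 AGGTCA half-sites spaced by 1 base, present in 0.0396%, was not in them either. These are matches of letters, and binding was not measured here. The Plin4 and Cidec stretches held no match to any of these motifs.

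On GRCm38 the genes lie at chr4:86648386-86670060 (Plin2), chr17:56100591-56109803 (Plin4), chr17:56111601-56117596 (Plin5), chr18:67343604-67367785 (Cidea), chr14:55754050-55758458 (Cideb), chr6:113424634-113435760 (Cidec), chr7:141455198-141460743 (Pnpla2), chr9:122351608-122381524 (Abhd5), chr1:193272161-193273217 (G0s2) and chr6:29272488-29275446 (Hilpda). Plin4 and Plin5 are neighbours on the same strand, separated by 1797 bases. Cideb shares 1136 of its 1488 exonic bases with Nop9 on the opposite strand. Whether the counting step used strand is not given in the sources used here, so that the counts of Cideb are uncertain, although Nop9 stayed between 14.5 and 19.3 CPM in all 16 libraries. G0s2 lies inside the laminin gene Lamb3 on the opposite strand and shares no annotated exon with it. Lamb3 itself rose in fasting, by 4.41 on the log2 scale in CD and by 3.0 in HFD (adjusted p = 2.52e-05 and 0.00159), so that unspliced Lamb3 RNA in the counts of G0s2 was not tested. Plin4 shares 17 exonic bases with Hdgfl2, and Abhd5 shares 950 with an antisense transcript, A730085K08Rik, that had at most 3 counts in any library. Cidea is overlapped on the opposite strand by B430212C06Rik, with no shared exonic base. B430212C06Rik had 0.304, 3.51, 3.52 and 0.646 CPM in HFD fast livers 1 to 4, highest in the same livers as Cidea, and its part in the counts of Cidea was not tested.

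Library totals ranged from 41364448 to 57583153 counts, and levels are given as CPM, counts relative to the library total after scaling between libraries. Hepatocyte markers summed to 80135 CPM or more in every library, while the skeletal muscle list summed to at most 1.04 CPM and the exocrine pancreas list to at most 1.72 CPM. Both HFD libraries numbered 4 stood apart in single genes. Gpnmb reached 16.7 CPM in HFD fed 4 and 39.7 CPM in HFD fast 4 and stayed at or below 2.49 CPM in the other HFD libraries, so that results are also given without these 2 libraries where they differ. Trem2 (5.92 and 6.74 CPM, elsewhere in HFD at most 1.97) and the collagen gene Col1a1 (21 and 24.4 CPM, at most 8.43) were also highest there. The macrophage list summed to 219 CPM in HFD fed 4, the highest of the HFD libraries, and to 157 CPM in HFD fast 4, within the range of the other HFD fast livers. In HFD fed 4, 6 of the 7 macrophage genes were the highest of the HFD fed livers and Timd4 the lowest, and in HFD fast 4 Adgre1, Cd68, Trem2 and Gpnmb were the highest of the HFD fast livers and Clec4f, Marco and Timd4 the lowest. The adipocyte list of 7 genes summed to between 2.20 and 5.81 CPM in livers of fed CD mice and between 2.09 and 7.58 CPM in those of fasted CD mice. With HFD the sums were 1.5 to 4.17 CPM in the fed and 2.79 to 71.1 CPM in the fasted state. Its defining genes Adipoq and Lep stayed at or below 0.976 and 0.781 CPM, and Lep had 0 counts in all 8 CD libraries. Of the same list, Cfd was called higher with fasting in HFD (log2 3.78, adjusted p = 0.0258) and Trarg1 with HFD in fed mice (log2 1.35, adjusted p = 0.0148). In each of these comparisons the other gene was lower and not called (log2 -0.33 for Trarg1 and -0.91 for Cfd). The summed lists of the other liver cells ranged from 82.9 to 256 CPM (7 Kupffer cell and macrophage genes), 120 to 315 CPM (6 stellate cell genes) and 147 to 236 CPM (5 sinusoidal endothelial genes). In whole liver, fewer cells of a type and less RNA per cell cannot be told apart.

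Fasting of mice fed CD changed 8 of the 10 genes, against 25.2% of all genes tested (edgeR quasi-likelihood test, adjusted p under 0.05). The 7 genes that rose were Plin2, Plin4, Plin5, Cidec, Pnpla2, G0s2 and Hilpda, where 13.7% of all genes rose, and Abhd5 fell with 11.5% of all genes. Cidec rose the most, 16.8-fold, followed by Plin4 at 4.83-fold. For 7 of the 10 genes the ranges of fed and fasted CD libraries were separate, against 25.4% of all genes. The median log2 change of the 10 genes was 1.19, and that of all genes was -0.0092. Of the markers of other liver cells, 5 of 18 were called lower in the same comparison and none higher. These were 2 of 7 macrophage genes (Adgre1 and Clec4f), 2 of 5 endothelial genes (Pecam1 and Stab2) and 1 of 6 stellate cell genes (Reln). In CD the macrophage list summed to 125 to 256 CPM in fed and 82.9 to 142 CPM in fasted livers, the endothelial list to 198 to 223 and 147 to 194 CPM, and the stellate cell list to 190 to 243 and 120 to 197 CPM. Of the 6 hepatocyte genes, Cyp2e1 was called higher and Ttr lower. The fed and fasted ranges overlapped for the macrophage and stellate cell lists and not for the endothelial list. Their part in the changes of the 10 genes was not tested.

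Fasting of mice fed HFD changed 3 of the 10 genes, Plin2, Plin4 and Cidec, all upwards, against 8.86% of all genes and 4.78% upwards. HFD changed 3 genes in fed mice, Plin4, Plin5 and Pnpla2, all upwards, against 7.50% of all genes and 3.28% upwards. In fasted mice it changed Plin4, upwards, against 7.70% of all genes and 3.05% upwards. The response to fasting differed between the diets for Plin5 and Pnpla2, both with a lower response in HFD, against 2.59% of all genes in this interaction test and 1.36% in that direction. Libraries of the groups compared did not overlap for 2 of the 10 genes in fasting in HFD (16.7% of all genes), 4 in HFD in fed mice (15.7%) and 1 in HFD in fasted mice (14.0%). The median log2 changes of the 10 genes were 0.61 for fasting in HFD, 0.64 for HFD in fed mice and -0.094 for HFD in fasted mice, beside 0.0079, 0.0066 and 0.013 over all genes. The comparisons of fasting in CD and of HFD in fed mice share the CD fed libraries. Markers also moved in these comparisons. With fasting in HFD the adipocyte gene Cfd was called higher, with overlapping libraries. It had 70.1 CPM in HFD fast 2 and 2.06 to 14.9 CPM in the other HFD fast livers. Trarg1 was lower there and not called (log2 -0.33, adjusted p = 0.499). The hepatocyte gene Tat was called lower. The hepatocyte list summed to between 115295 and 140049 CPM in fed and between 80135 and 114153 CPM in fasted livers, without overlap. With HFD in fed mice the adipocyte gene Trarg1 was called higher, and Cfd was lower and not called (log2 -0.91, adjusted p = 0.612). The adipocyte list summed to 1.5 to 4.17 CPM in HFD fed livers, against 2.20 to 5.81 CPM in CD fed livers. With HFD in fasted mice Pecam1, Stab2 and Reln were called higher and Tat lower. Their part in the results of the 10 genes was not tested.

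**Figure D1:**
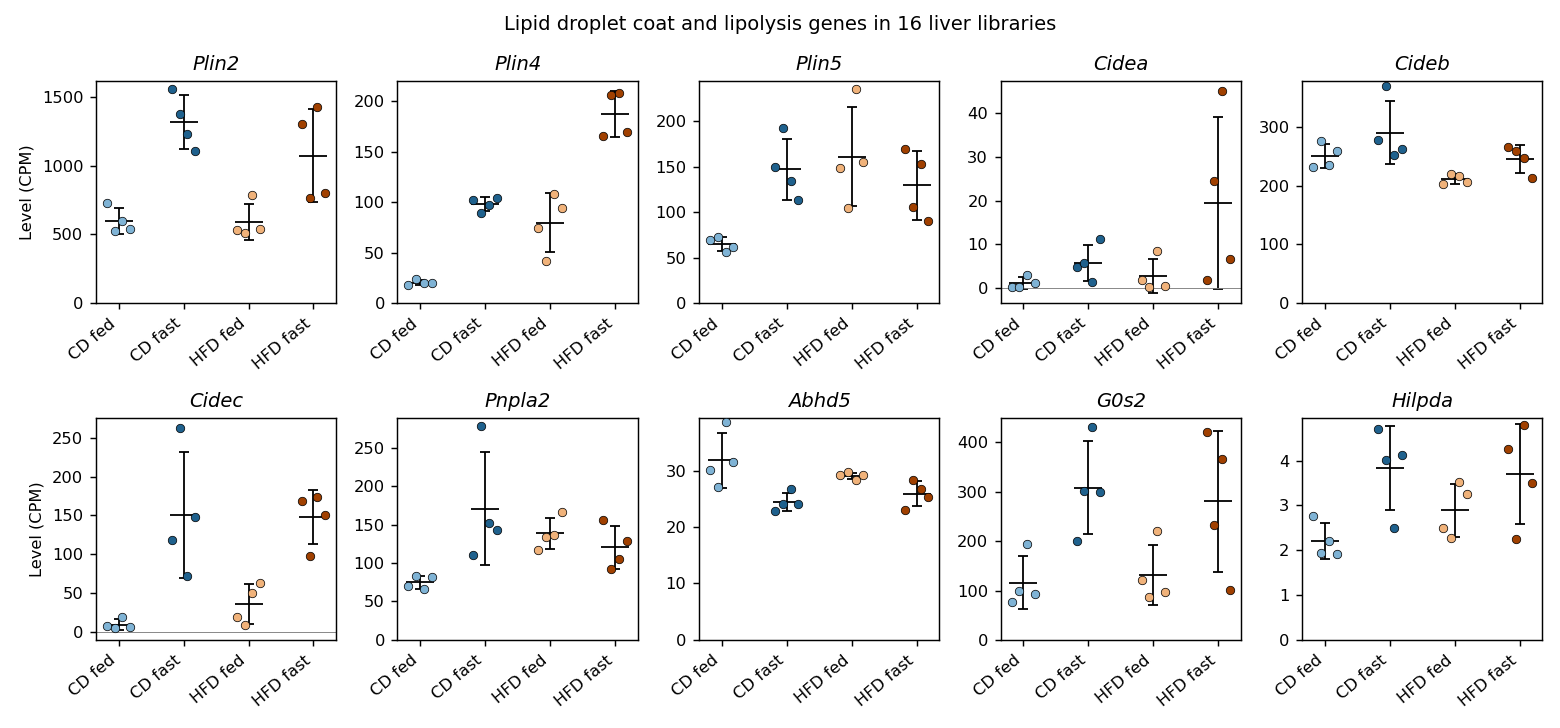
Level of each gene in CPM (linear axis from 0) in the 16 libraries, by group. Points are libraries in the order of their numbers, and bars show the mean ± SD of 4 libraries. Plin4 in CD fed livers lay between 18.1 and 23.7 CPM, below all other libraries, whereas Plin5 in the other 3 groups ranged together from 89.9 to 235 CPM.

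Plin2 encodes the perilipin that coats droplets in nearly all cell types. Its level was 729, 523, 601 and 542 CPM in CD fed livers 1 to 4, and 1560, 1377, 1230 and 1108 CPM in CD fast livers. In HFD fed livers it was 533, 510, 784 and 539 CPM, and in HFD fast livers 1304, 764, 1424 and 800 CPM. All 4 CD fast livers were above all 4 CD fed livers, while with HFD fasted liver 2 was below fed liver 3 and fasted liver 4 just above it. Fasting raised Plin2 by 1.14 ± 0.21 (log2 fold change ± SE, adjusted p = 0.00123) in CD, a 2.20-fold change, and by 0.86 ± 0.21 (adjusted p = 0.0200) in HFD, a 1.81-fold change. HFD itself gave a log2 difference of -0.017 ± 0.21 in fed mice (adjusted p = 0.974) and of -0.30 ± 0.21 in fasted mice (adjusted p = 0.382). The call in HFD was lost in 4 of 16 fits that each left out 1 library, those without HFD fast 1 or 3 or HFD fed 1 or 2, with adjusted p up to 0.0686, and in a fit of the HFD groups alone (adjusted p = 0.0619). For every pairwise comparison, only part of the 16 fits leave out a library of the 2 groups compared. The other fits keep those groups whole and change mainly the shared spread and the adjustment of p, so that they test such a call less.

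Plin4, a perilipin best known from adipose tissue and muscle, was the gene that differed in every pairwise comparison. The levels in CD fed livers were 18.1, 23.7, 19.7 and 19.7 CPM, and those in CD fast livers 102, 88.9, 96.9 and 104 CPM. HFD fed livers had 74.9, 41.7, 108 and 93.9 CPM, and HFD fast livers 166, 206, 208 and 170 CPM. The groups formed 3 steps that did not overlap, with CD fed lowest, HFD fed and CD fast sharing the middle and HFD fast highest. Group means were 20.3 ± 2.39, 79.7 ± 28.8, 98.1 ± 6.89 and 187 ± 22.8 CPM in that order (SD, n = 4). Fasting raised Plin4 4.83-fold in CD (log2 2.27 ± 0.21, adjusted p = 7.65e-06) and 2.35-fold in HFD (log2 1.23 ± 0.20, adjusted p = 0.00263). HFD raised it 3.92-fold in fed mice (log2 1.97 ± 0.21, adjusted p = 0.000142) and 1.91-fold in fasted mice (log2 0.93 ± 0.20, adjusted p = 0.0144). These 4 calls held in all 16 fits that left out 1 library and in the other 9 settings tried. The difference between the 2 fasting responses of Plin4, -1.04 ± 0.29 on the log2 scale, did not pass in edgeR (adjusted p = 0.0640) and passed in DESeq2 (adjusted p = 0.0112). In edgeR it passed in 1 of 16 fits without 1 library, that without HFD fed 2 (adjusted p = 0.00759). Over these fits it ranged from -1.25 to -0.86.

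Plin5, the perilipin of oxidative tissues that binds both ABHD5 and the lipase, had another pattern. CD fed livers had 69.1, 72.6, 55.8 and 61.3 CPM, and CD fast livers 149, 193, 134 and 114 CPM. With HFD the fed livers had 149, 105, 235 and 155 CPM and the fasted livers 169, 106, 153 and 89.9 CPM. The CD fed libraries lay below all 12 others, which overlapped one another. Plin5 rose 2.28-fold with fasting in CD (log2 1.19 ± 0.24, adjusted p = 0.00228) and 2.49-fold with HFD in fed mice (log2 1.32 ± 0.24, adjusted p = 0.00456). In mice fed HFD the log2 difference with fasting was -0.32 ± 0.23 (adjusted p = 0.424), and HFD in fasted mice gave -0.19 ± 0.23 (adjusted p = 0.654). When 1 library was left out these ranged from -0.48 to -0.076 and from -0.35 to -0.032, and neither passed. The fasting response differed between the diets by -1.5 ± 0.33 on the log2 scale (adjusted p = 0.0292). This call was lost in 6 of 16 fits without 1 library (CD fast 2, CD fed 2, 3 or 4, HFD fast 4 or HFD fed 3; adjusted p up to 0.0582) and without both HFD libraries numbered 4 (-1.38, adjusted p = 0.0594).

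The CIDE genes spanned the widest range of responses. Cidec, which drives the formation of large droplets in adipocytes and fatty liver, had 7.09, 3.99, 19.0 and 5.79 CPM in CD fed livers and 118, 263, 71.9 and 148 CPM in CD fast livers. HFD fed livers had 18.5, 8.40, 50.2 and 63.3 CPM, and HFD fast livers 169, 97.6, 174 and 150 CPM. Every fasted library was above every fed library of either diet. Fasting raised Cidec 16.8-fold in CD (log2 4.07 ± 0.64, adjusted p = 0.000381; log2 4.74 without CD fed 3, the highest fed library) and 4.20-fold in HFD (log2 2.07 ± 0.58, adjusted p = 0.0382). The fasted groups had similar means, 150 ± 81.6 and 148 ± 34.8 CPM (log2 difference -0.025 ± 0.56, adjusted p = 0.983). In fed mice Cidec was 3.92-fold higher with HFD, with overlapping libraries and an adjusted p of 0.0532, just outside the threshold. This difference was called in 4 of the other 9 settings, by DESeq2 and by edgeR with total count scaling or another filter, and in 3 of 16 fits without 1 library. Without both HFD libraries numbered 4 it was 1.52 on the log2 scale, from 1.97 (adjusted p = 0.142), and without CD fed 3 it was 2.64 (adjusted p = 0.0225). The fasting call in HFD was lost in 6 of 16 fits, those without HFD fast 1, 3 or 4 or HFD fed 1, 2 or 3 (adjusted p up to 0.116). Among the fits without an HFD library, only those without HFD fast 2 or HFD fed 4 kept this call. It was also lost in a fit of the HFD groups alone (adjusted p = 0.0541). The interaction for Cidec was -2.0 ± 0.80 (adjusted p = 0.180), with a range of -2.67 (without CD fed 3) to -1.55 (without HFD fed 4) when 1 library was left out, and it passed in none of these fits.

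Cidea, abundant in brown fat and low in lean liver, was the least even of the 10 genes. Levels were 0.0911, 0.204, 2.97 and 1.0 CPM in CD fed livers and 4.83, 5.73, 1.36 and 11.3 CPM in CD fast livers. With HFD they were 1.71, 0.219, 8.51 and 0.395 CPM in fed and, in fasted livers, 1.84, 24.6, 45.1 and 6.54 CPM. All groups overlapped, and HFD fast livers 2 and 3 held the highest values. The log2 differences with fasting were 2.44 ± 1.16 in CD (adjusted p = 0.137) and 2.86 ± 1.12 in HFD (adjusted p = 0.121), and neither passed. When 1 library was left out the CD difference ranged from 1.88 (without CD fast 4) to 3.73 (without CD fed 3) and passed in none of these fits, and with the replicate number as a block it passed, at 3.36 (adjusted p = 0.0426). The HFD difference ranged from 2.03 (without HFD fast 3) to 4.65 (without HFD fed 3) and passed only in the latter fit. The adipocyte gene Cfd was also highest in HFD fast livers 2 and 3, at 70.1 and 14.9 CPM against 3.58 and 2.06 CPM in HFD fast livers 1 and 4. The whole adipocyte list summed to 6.38, 71.1, 16.1 and 2.79 CPM in HFD fast livers 1 to 4. In livers 2 and 3 most of this sum was Cfd. Among HFD fast livers, Adipoq (0.976 CPM), Lep (0.781 CPM) and Plin1 (0.239 CPM) were highest in liver 1, where Cidea was lowest. Retn (0.0906 CPM) and Adig (0.227 CPM) were highest in liver 2, and Trarg1 (0.859 CPM) in liver 3. The part of the adipocyte list in the levels of Cidea was not tested.

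Cideb, the CIDE gene of hepatocytes with a role in the lipidation of very low density lipoprotein, was nearly constant. With CD the mean was 250 ± 20.6 CPM in fed and 290 ± 54.0 CPM in fasted mice, and with HFD 211 ± 8.47 and 246 ± 23.8 CPM (SD, n = 4). Single libraries ranged from 202 to 370 CPM. Log2 differences were 0.21 ± 0.11 and 0.22 ± 0.11 with fasting in CD and in HFD, and -0.24 ± 0.11 with HFD in either feeding state, with adjusted p between 0.177 and 0.232. When 1 library was left out, fasting in CD ranged from 0.077 to 0.27 and HFD in fasted mice from -0.30 to -0.10, and neither passed. In fed mice every HFD library was below every CD library.

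**Figure D2:**
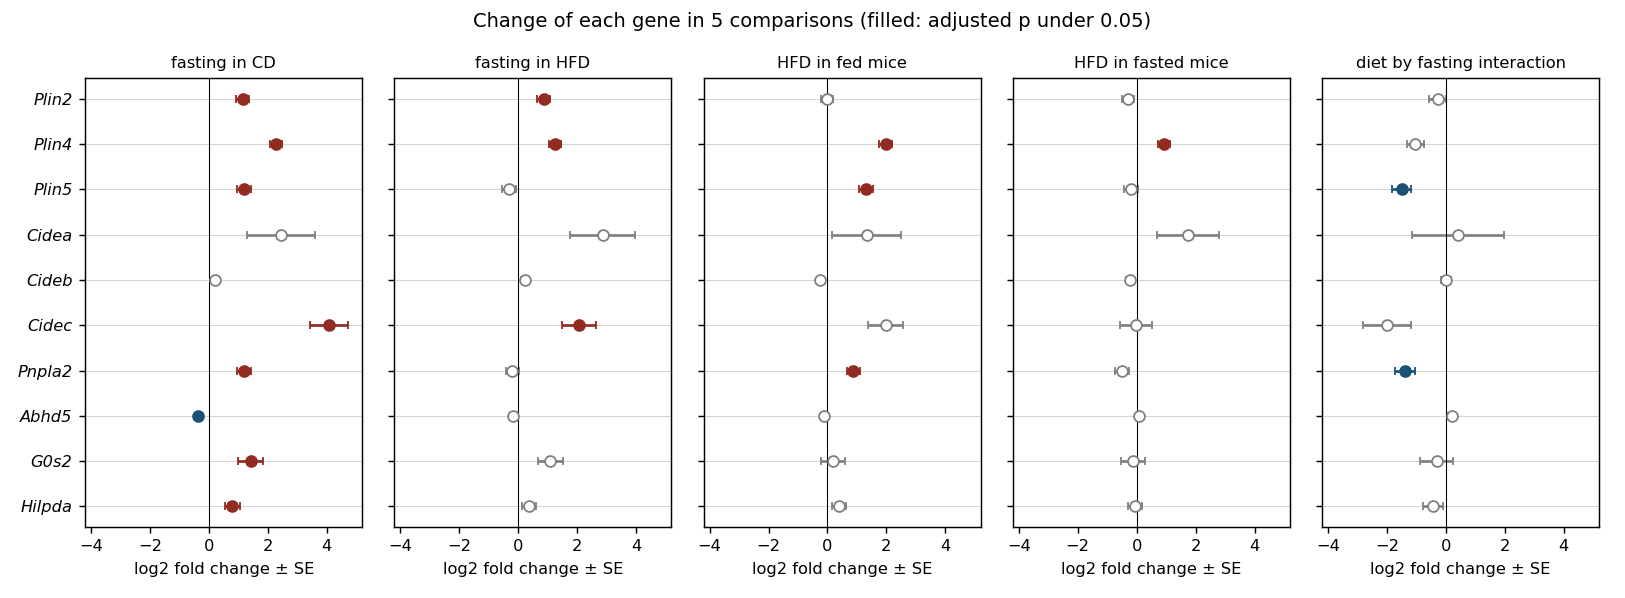
Log2 fold change ± SE of each gene in the 4 pairwise comparisons and in the interaction (the change in HFD less the change in CD). Filled symbols passed an adjusted p of 0.05, red upwards and blue downwards, and open symbols did not. Filled symbols number 8 for fasting in CD, 3 for fasting in HFD, 3 and 1 for HFD in fed and fasted mice and 2 for the interaction.

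Pnpla2 encodes the lipase that starts triglyceride breakdown on the droplet. It had 69.6, 82.5, 65.9 and 82.0 CPM in CD fed livers and 111, 278, 152 and 143 CPM in CD fast livers. In mice fed HFD it had 117, 134, 136 and 166 CPM in fed and, in fasted livers, 156, 92.2, 106 and 128 CPM. As for Plin5, the CD fed libraries lay below all 12 others, and CD fast 2 was the highest of all. Pnpla2 rose 2.28-fold with fasting in CD (log2 1.19 ± 0.23, adjusted p = 0.00198) and 1.84-fold with HFD in fed mice (log2 0.88 ± 0.23, adjusted p = 0.0308). With fasting in HFD the log2 difference was -0.20 ± 0.23 (adjusted p = 0.626), and with HFD in fasted mice -0.50 ± 0.23 (adjusted p = 0.179). When 1 library was left out these ranged from -0.35 to -0.10 and from -0.67 to -0.17, and neither passed. The interaction was -1.39 ± 0.33 (adjusted p = 0.0369). It was lost in 10 of 16 fits without 1 library, at an adjusted p of up to 0.0777. These were the fits without CD fed 1, 2, 3 or 4, HFD fast 2, 3 or 4 or HFD fed 2, 3 or 4. Without both HFD libraries numbered 4 the adjusted p was 0.0770, and with the replicate number as a block it was 0.0553. The call for HFD in fed mice was lost in 7 of 16 fits, those without any of the CD fed libraries or HFD fed 2, 3 or 4 (adjusted p up to 0.0762). Among the fits without a library of the fed groups, it was kept only in that without HFD fed 1. It was also lost without both HFD libraries numbered 4 (log2 0.78, adjusted p = 0.0751).

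Abhd5 was the only gene of the 10 to fall in fasted CD mice. Levels were 30.1, 27, 38.6 and 31.6 CPM in CD fed livers and 22.9, 24.1, 26.7 and 24.1 CPM in CD fast livers, so that the lowest fed library stood just above the highest fasted one. HFD fed livers had 29.2, 29.7, 28.3 and 29.1 CPM and HFD fast livers 23.1, 28.3, 26.7 and 25.3 CPM, so that in HFD the ranges met only at fed liver 3 and fasted liver 2. Abhd5 fell by 0.38 on the log2 scale in CD (SE 0.09, adjusted p = 0.00905), a 1.30-fold reduction. In HFD the log2 difference with fasting was -0.17 ± 0.09 (adjusted p = 0.278), and the interaction was 0.21 ± 0.13 (adjusted p = 0.395). The coactivator gene and the lipase gene thus moved in opposite directions in fasted CD mice.

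G0s2 encodes a small protein that binds and blocks the lipase. It had 77.1, 98.2, 195 and 93.7 CPM in CD fed livers and 201, 301, 431 and 300 CPM in CD fast livers, where every library was above those of CD fed livers. HFD fed livers had 122, 87.7, 220 and 96.7 CPM, and HFD fast livers 422, 232, 366 and 102 CPM, with HFD fast 4 within the range of the fed livers. Fasting raised G0s2 2.66-fold in CD (log2 1.41 ± 0.41, adjusted p = 0.0216). This call was lost in 4 of 16 fits, those without CD fast 3 or CD fed 1, 2 or 4 (adjusted p up to 0.0639). In HFD the log2 difference was 1.09 ± 0.41 (adjusted p = 0.109), and it passed without HFD fast 4, at 1.37. It also passed with the replicate number as a block (adjusted p = 0.0439). HFD gave log2 differences of 0.18 ± 0.41 in fed mice and -0.14 ± 0.41 in fasted mice (adjusted p = 0.839 and 0.866).

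Hilpda, a lipase inhibitor gene that responds to hypoxia and to fatty acids, was low throughout, between 1.91 and 4.80 CPM. With CD the mean was 2.21 ± 0.401 CPM in fed and 3.84 ± 0.938 CPM in fasted mice, and with HFD 2.89 ± 0.596 and 3.70 ± 1.11 CPM (SD, n = 4). CD fast 3, at 2.50 CPM, overlapped the CD fed livers, which reached 2.77 CPM. Fasting raised Hilpda 1.74-fold in CD (log2 0.80 ± 0.24, adjusted p = 0.0245), a call lost in 5 of 16 fits, those without CD fast 1, 2 or 4 or CD fed 2 or 4 (adjusted p up to 0.0688). In HFD the log2 difference with fasting was 0.36 ± 0.24 (adjusted p = 0.368).

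**Figure D3:**
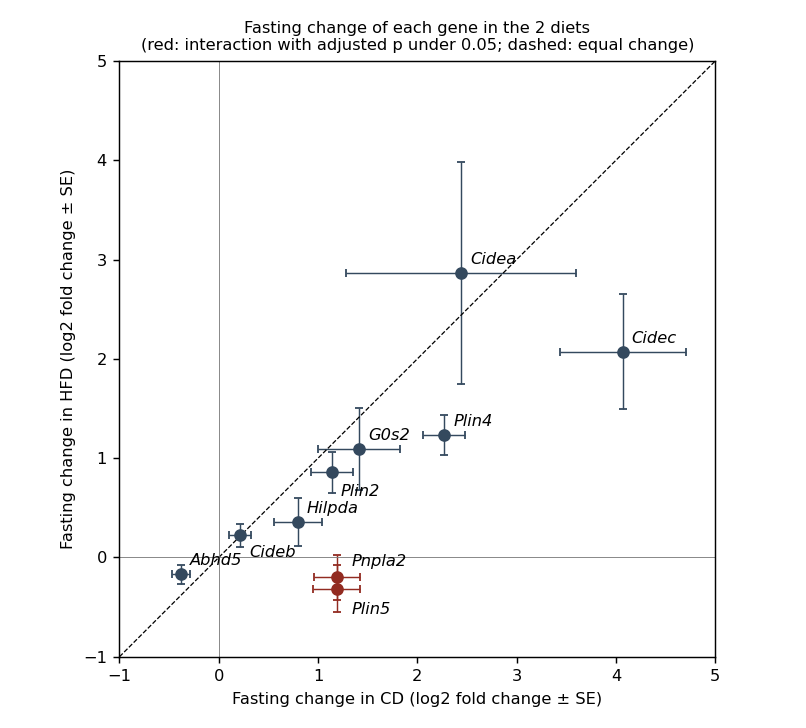
Fasting change in CD (horizontal) against that in HFD (vertical), as log2 fold change ± SE, with equal changes on the dashed line. The 2 axes share no library, and Plin5 and Pnpla2, in red, lie at 1.19 on the horizontal axis and at -0.32 and -0.20 on the vertical.

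The balance between the lipase and its regulators was described by ratios within each library, taken per kb of exon, without a test. The ratio of Abhd5 to Pnpla2 was 0.214 in CD fed livers (geometric mean, range 0.166 to 0.296). CD fast livers had 0.0770 (0.0439 to 0.105), and with HFD the ratio was 0.107 in fed (0.0891 to 0.126) and 0.111 in fasted mice (0.0749 to 0.156). CD fed libraries were above those of all other groups in this ratio. The ratio of G0s2 to Pnpla2 was 5.04 in fed and 6.42 in fasted CD mice, and 3.10 and 7.21 with HFD. That of Hilpda to Pnpla2 was 0.0799 and 0.0636 with CD, and 0.0567 and 0.0824 with HFD. For both inhibitors the libraries overlapped between groups in all 4 pairwise comparisons. With fasting in HFD the log2 ratio of G0s2 to Pnpla2 was 1.22 higher, where the SD was 0.67 in fed and 0.94 in fasted mice. HFD fast 4, at 1.47, was the only fasted library within the fed range, which reached 2.48, and the others lay between 3.13 and 3.58. The shift was 1.68 without HFD fast 4 and 1.48 without both HFD libraries numbered 4. The log2 ratio of Hilpda to Pnpla2 was 0.54 higher (SD 0.25 and 0.40).

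**Figure D4:**
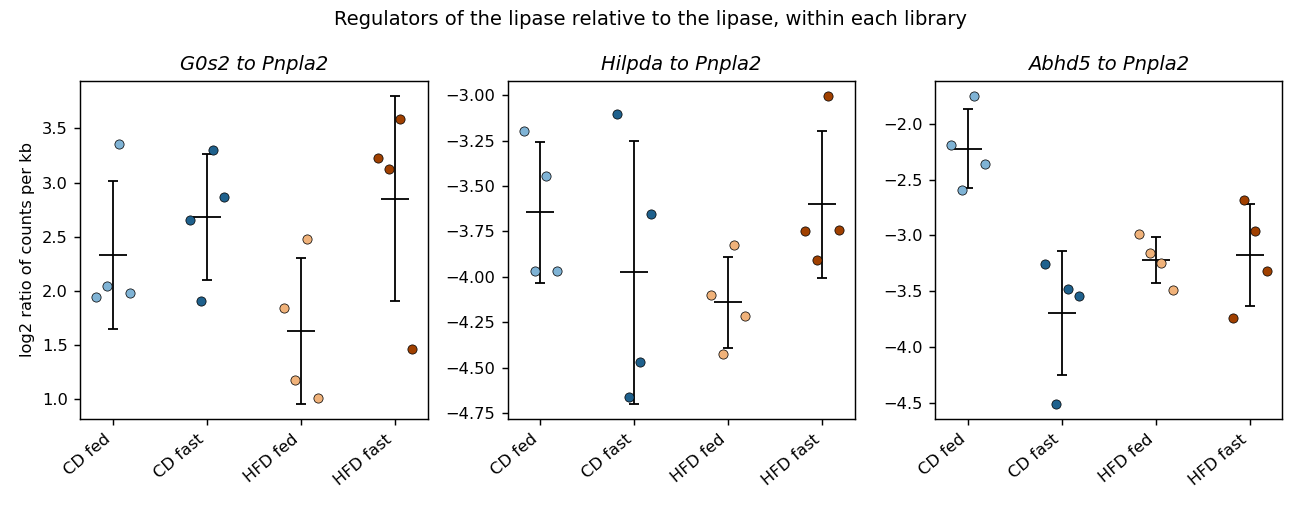
Log2 ratio of G0s2, Hilpda and Abhd5 to Pnpla2 within each library, from counts per kb of exon, by group. Points are libraries and bars the mean ± SD of 4. Abhd5 to Pnpla2 was highest in CD fed livers, at a mean of -2.22, and lowest in CD fast livers, at -3.70.

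Compared per kb of exon, Plin2, G0s2 and Cideb were the 3 most abundant of the 10 genes in every group, and Hilpda was in the ninth or the tenth place. In CD fed livers the levels per kb were 170 ± 26.4 for Plin2, 168 ± 13.8 for Cideb and 133 ± 61.4 CPM per kb for G0s2, which overlap. Their shares of the summed level of the 10 genes in CD fed livers were 31.3%, 30.9% and 24.5%. Cidec moved from the seventh place in CD fed livers, at 4.83 ± 3.66 CPM per kb, to the fourth in CD fast livers, at 81.0 ± 44.0 CPM per kb. Summed over the 10 genes the level was 544 ± 55.6 CPM per kb in fed and 1163 ± 135 in fasted CD mice, and 627 ± 146 and 1032 ± 302 with HFD. The sum in CD fast livers, at least 1054, was above all CD fed libraries, at most 627, and that in HFD fast livers, from 697, overlapped HFD fed livers, up to 840.

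**Figure D5:**
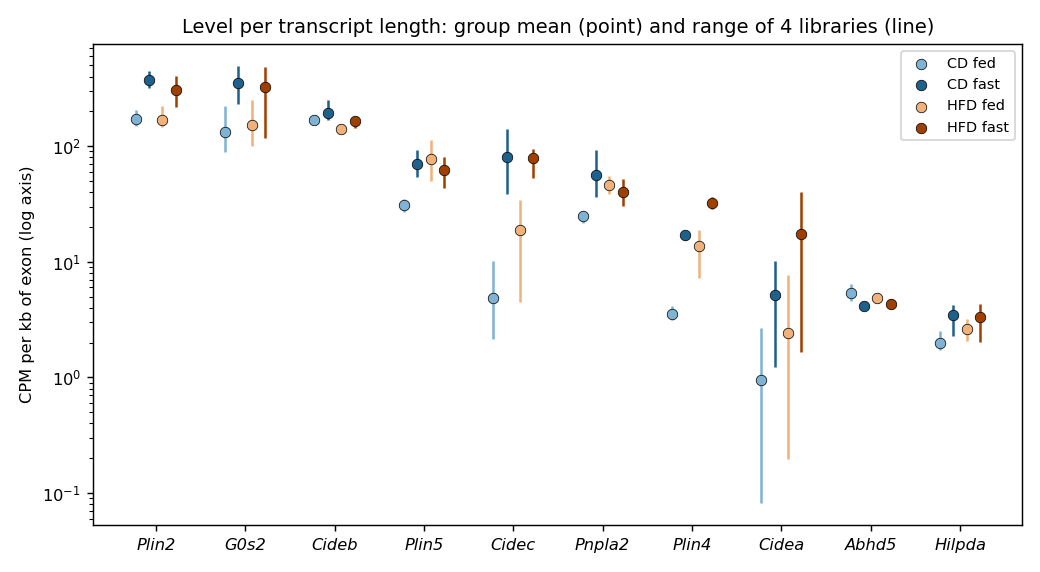
Level in CPM per kb of exon (log axis) of the 10 genes, ordered by mean, with points for group means and lines from the lowest to the highest of 4 libraries. Cidec and Cidea span the widest ranges, and Abhd5 and Cideb the narrowest.

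In the order of group means, CD fed was the lowest group for Plin4, Plin5, Cidea, Cidec, Pnpla2, G0s2 and Hilpda. The neighbours CD fed and HFD fed were apart without overlap for Plin4, while for Cidec, Cidea, G0s2 and Hilpda they overlapped. For Plin5 and Pnpla2 the next group above CD fed was HFD fast, 2.0-fold and 1.61-fold higher by means and without overlap, and the 3 upper groups overlapped as neighbours. For Plin2 the neighbours CD fed and HFD fast were 1.79-fold apart without overlap, while the fed groups overlapped each other, as did the fasted groups. All neighbouring groups overlapped for Cideb and Abhd5.

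The genes nearest in pattern over the 16 libraries were sought among 11004 genes with a mean of at least 100 counts, by the root mean square difference of centred log2 CPM. Nearest to Plin4 were Cd36, the fatty acid transporter, and Gpat3, an enzyme of glycerolipid synthesis, at 0.50 and 0.51, where the spread of Plin4 itself was 1.20. Cidec was nearest to Cgref1 and to Acot2, a mitochondrial acyl-CoA thioesterase, at 0.76 and 0.87 against its own spread of 1.95. G0s2 was nearest to the peroxisomal thioesterase gene Acot4 and to Acsl1, which activates fatty acids, at 0.38 and 0.39 against 0.85. For Plin2 these were Tor1b and Pctp (0.22 and 0.23 against 0.57), and for Hilpda the lactate dehydrogenase gene Ldha and Pde7b (0.23 and 0.24 against 0.44). Plin5 was nearest to Impa2 and Aifm2 (0.30 and 0.34 against 0.59), Pnpla2 to Tmtc2 and Ung (0.21 and 0.24 against 0.51), and Abhd5 to Mrps25 and Zfp507 (0.095 and 0.099 against 0.18). Plin5 and Pnpla2 differed from each other by 0.38.

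A further list held 35 genes of droplets, lipases and their regulators, of which 34 were matched by symbol and 33 tested. With fasting in CD 11 of the 33 rose and 5 fell (48.5%, against 25.2% of all genes). With fasting in HFD 4 rose and 4 fell (24.2% against 8.86%), and with HFD in fed mice 4 rose and 3 fell (21.2% against 7.50%). With HFD in fasted mice 1 rose and 2 fell (9.09%, near the 7.70% of all genes), and in the interaction 1 was higher and 2 were lower (9.09% against 2.59%). Their median log2 change with fasting in CD was 0.20, beside -0.0092 over all genes. Several of these calls were lost when 1 library was left out. The number of the 16 fits without 1 library that lost a call is given with the p-values that follow, as lost fits, and the number of the other 9 settings (8 for the interaction) that lost it as lost settings, each where above 0. In a pairwise comparison only part of the 16 fits leave out a library of the groups compared. Plin1, the perilipin of adipocytes, was too low to be tested and reached at most 0.394 CPM.

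Of the other droplet proteins (7 tested), Hsd17b11, an enzyme of the droplet surface, resembled Plin5 in its calls. It rose 2.79-fold with fasting in CD and 1.66-fold with HFD in fed mice (adjusted p = 1.22e-06 and 0.00124). Its fasting response differed between the diets by -1.05 ± 0.15 on the log2 scale (adjusted p = 0.00381), and in HFD it still rose, 1.35-fold (adjusted p = 0.0215; 2 lost fits and 1 lost setting). Hsd17b13 and Plin3, the perilipin that moves between cytosol and droplets, rose with fasting in CD by 0.70 ± 0.21 and 0.40 ± 0.14 (adjusted p = 0.0240 and 0.0425; 5 and 8 lost fits, and 2 lost settings for Plin3). Aup1 fell by 0.28 on the log2 scale with HFD in fasted mice (adjusted p = 0.0270; 5 lost fits and 4 lost settings). Of 6 genes of droplet formation, Dgat1, which makes triglyceride, and Fitm2, which aids droplet budding, rose 1.56-fold and 1.64-fold with fasting in CD, and Acsl3 fell 1.95-fold (adjusted p = 0.000739, 0.00399 and 0.00195). With HFD in fed mice Fitm2 rose 1.45-fold and Acsl3 fell 1.76-fold (adjusted p = 0.0488 and 0.0170; 12 and 2 lost fits, and 1 lost setting for Fitm2), and with HFD in fasted mice Dgat1 fell 1.4-fold (adjusted p = 0.0165; 2 lost fits and 3 lost settings).

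The other lipases (9 tested) moved in both directions, with 7 called with fasting in CD, where 25.2% of all genes were called. Mgll, which completes triglyceride breakdown at the monoglyceride step, rose 2.59-fold with fasting in CD, 1.5-fold with fasting in HFD and 1.51-fold with HFD in fed mice (adjusted p = 4.85e-05, 0.0372 and 0.0377; 0, 6 and 6 lost fits, and 1 lost setting with fasting in HFD). Pnpla3, a relative of Pnpla2, moved the other way and fell 31.1-fold with fasting in CD and 13.1-fold with HFD in fed mice (adjusted p = 1.28e-07 and 3.87e-06). Its mean was 12.1 CPM in fed and 0.386 CPM in fasted CD mice, and 0.919 and 0.415 CPM with HFD, and its fasting response differed between the diets by 3.80 ± 0.42 (adjusted p = 0.00116). In HFD it fell 2.22-fold with fasting (adjusted p = 0.0278; 6 lost fits). This call was also lost in 3 settings, by limma-voom (adjusted p = 0.195), without both HFD libraries numbered 4 (0.152) and with only the groups compared (0.0560). Nceh1 rose 1.99-fold and Aadac fell 1.73-fold with fasting in CD (adjusted p = 0.00559 and 0.00140), and Aadac fell 1.70-fold with fasting in HFD (adjusted p = 0.00628). The lysosomal lipase gene Lipa rose 1.47-fold with fasting in HFD and fell 1.42-fold with HFD in fed mice (adjusted p = 0.0105 and 0.0187; 0 and 3 lost fits). Ddhd2 rose 1.48-fold with HFD in fed mice (adjusted p = 0.0405, with 7 lost fits and 1 lost setting). Its fasting response differed between the diets by -1.02 ± 0.22 (adjusted p = 0.0287, with 4 lost fits). This call was also lost in 1 setting, without both HFD libraries numbered 4 (adjusted p = 0.0537).

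Among 11 regulators, Srebf1, the lipogenic transcription factor gene, fell 3.60-fold with fasting in CD and 2.09-fold in HFD and was 2.31-fold higher with HFD in fasted mice (adjusted p = 2.79e-05, 0.00624 and 0.00512; 1 lost setting for the last, with only the groups compared, at an adjusted p of 0.0556). Creb3l3 and Ppargc1a, whose products act in the fasting response, rose 1.73-fold and 2.36-fold with fasting in CD (adjusted p = 0.000603 and 0.0287). The call of Ppargc1a was lost in 4 of 16 fits, those without CD fast 2 or 4 or CD fed 3 or 4 (log2 0.71 and adjusted p = 0.141 without CD fast 2), and in 2 of the other 9 settings. With fasting in HFD Pparg rose 1.94-fold, from 8.56 to 16.6 CPM (adjusted p = 0.0156; 1 lost fit), and Hnf4a fell 1.46-fold (adjusted p = 0.00601).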

How the data were processed

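RNA-seq measured polyadenylated RNA in 16 livers, 4 in each of 4 groups of diet and feeding state. The authors deposited raw counts, whole numbers per Ensembl gene, made by alignment to GRCm38 with TopHat2 2.0.11 in first-strand mode and counting with featureCounts. The annotation release and the strand setting of counting are not given in the sources used here. All columns of per-sample values were used (0 left out).

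Tests used edgeR 4.0.16 (R 4.3.3). TMM factors (trimmed mean of M-values) scaled the 15075 genes that filterByExpr kept, which were fitted by quasi-likelihood with 1 coefficient per group over 16 libraries (12 residual degrees of freedom). Adjusted p-values are Benjamini-Hochberg values over all genes tested in each of 5 comparisons, with a threshold of 0.05, and SE is the log2 fold change divided by the root of the F statistic. CPM are counts relative to the TMM-scaled library total, and log2 CPM for patterns used a prior count of 2. Levels per kb used union exon lengths of GENCODE M21 on GRCm38. At these depths 3 counts corresponded to 0.0536 to 0.0767 CPM, for counting error only, as reads carried no molecular identifiers. The 24 pairs of libraries within groups differed beyond sampling noise (lowest chi-square per gene 35.8).

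The 10 members, the lists and the tests were chosen with earlier results of these data known. Named were all members, called genes of the further list (up to 4 per role and comparison, by p) and, for each called member, the 2 genes nearest in pattern. In simulated data for fasting in CD (14928 genes, 199 changed), edgeR recovered 19.4%, 60.9% and 93.7% of log2 changes of 0.5, 1 and 2, with 3.39% false calls. The alternatives were DESeq2 1.42.0, limma-voom (limma 3.58.1), DESeq2 size factors, total count scaling, no filter, a mean of at least 50 counts, a fit of the compared groups alone, a block for the replicate number, and leaving out each library. The fit without both HFD libraries numbered 4 was chosen after the data were seen. Sequences were those of RefSeq on GRCm38.p6, matched by symbol.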

Additional observations from a re-analysis of the deposited data

Results flagged for a closer look

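Plin2 in HFD fed liver 3, at 784 CPM, lay far above the other 3 HFD fed livers (510 to 539 CPM), with a gap to the nearest of 0.892 of the group's range, over Dixon's 95% limit. It was the only such case among 40 groups of 4 libraries checked, and chance gives about 1 in 20.

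Plin5 and Pnpla2 responded to fasting differently in the 2 diets by the interaction test of edgeR. The change in HFD less the change in CD was -1.5 for Plin5 and -1.39 for Pnpla2 on the log2 scale, with adjusted p of 0.0292 and 0.0369. In CD all 4 fasted libraries of both genes were above all 4 fed libraries, and in HFD the libraries overlapped. The call of Plin5 was lost in 6 and that of Pnpla2 in 10 of 16 fits without 1 library. Both were lost without both HFD libraries numbered 4 (adjusted p = 0.0594 and 0.0770), and that of Pnpla2 also with the replicate number as a block (0.0553).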

How the results depend on the processing

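Of 2162 values recomputed under an alternative, 1962 kept their direction and their side of the threshold, 153 were no longer called, 13 became called and 34 changed sign. The calls of all 8 genes with fasting in CD held in the other 9 settings tried, and 6 to 8 of them held when each library was left out. For fasting in HFD the number of genes called was 1 (Plin4) when only the groups compared were fitted, with adjusted p of 0.0619 for Plin2 and 0.0541 for Cidec, and 1 to 3 when each library was left out. For HFD in fed mice it was 2 to 4 when each library was left out, and for HFD in fasted mice it stayed at 1. For the interaction it was 0 to 2 when each library was left out, 0 without both HFD libraries numbered 4 and 1 (Plin5) with the replicate number as a block; the causes were not tested. DESeq2 called 3 genes there. The number called over all genes, which gives the shares printed beside the members, also moved. When 1 library was left out it was 505 to 1533 with fasting in HFD, from 1335. It was 514 to 1268 with HFD in fed mice, from 1131, and 535 to 1354 with HFD in fasted mice, from 1161. In the interaction it was 147 to 461, from 390. When only the groups compared were fitted it was 90 with HFD in fasted mice.

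The replicate numbers did not pair the samples as a whole. The median correlation of libraries with the same number, after subtraction of group means, was 0.058. Of these correlations 8 of 24 exceeded 0.1, against 18 of 72 for libraries of different numbers. Of the 16 libraries, 5 correlated best with a library of their own number. The highest correlation was 0.662 for libraries of the same number, against at most 0.386 for those of different numbers. The block gave 9 calls with fasting in CD, adding Cidea (log2 3.36, adjusted p = 0.0426), 4 with fasting in HFD, adding G0s2 (log2 1.11, adjusted p = 0.0439), and 3 and 1 with HFD in fed and fasted mice, and Pnpla2 was not called in the interaction (-1.34, adjusted p = 0.0553).

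Signs changed only in differences that were not called. Plin2 with HFD in fed mice was 0.049 with total count scaling, 0.024 without both HFD libraries numbered 4 and -0.18 to 0.091 when each library was left out. Leaving out each library gave -0.46 to 2.62 for Cidea and -0.19 to 0.55 for G0s2 with HFD in fed mice. With HFD in fasted mice Cidec was 0.082 by limma-voom and 0.14 with total count scaling, with a range of -0.25 to 0.39 over libraries left out. G0s2 was 0.0099 with total count scaling and 0.14 without both HFD libraries numbered 4 (range -0.40 to 0.14), and Hilpda was 0.11 with total count scaling (range -0.21 to 0.13). In the interaction Cideb was -0.0015 by DESeq2 and -0.0016 with DESeq2 size factors (range -0.061 to 0.14), Cidea was -0.39 with the block (range -0.87 to 2.21) and G0s2 ranged from -0.69 to 0.047.

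Total count scaling moved the median log2 change of all genes most with HFD in fasted mice, to 0.17 from 0.013, and the share of higher calls over all genes to 88.1% from 39.6% there, to 68.8% from 43.8% with HFD in fed mice, to 67.6% from 54.0% with fasting in HFD, to 44.3% from 54.4% with fasting in CD and to 69.5% from 47.4% in the interaction. Log2 ratio differences within libraries moved by less than the spread between libraries when each was left out or both HFD libraries numbered 4. A mean of 4 values cannot move by more than its SD when 1 is left out, so that this does not measure stability. With 4 libraries per group, changes of 0.5 on the log2 scale were mostly missed in simulation. That simulation changed 199 of 14928 genes, whereas 3797 of 15075 were called with fasting in CD. The adjustment of p depends on this share, so that the recovery need not hold for that comparison.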
